A study of Mus musculus with 9 samples.

Results

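Ceramide and the other sphingolipids are built from palmitoyl-CoA, the activated form of the fatty acid that was added to these cultures. The data described here are the mRNA levels of 10 genes of ceramide synthesis and turnover, listed by their known enzyme steps: Sptlc1, Sptlc2, Kdsr, Cers2, Cers5, Cers6, Degs1, Ugcg, Sgms1 and Sgpl1. They are 10 of the 24421 genes in the count table, and all 10 were among the 12575 genes that passed a filter on low counts. RNA was sequenced from 4T1, a carcinoma line of the mouse mammary gland, grown as spheroids on soft agar (3D) or as a monolayer on plastic (2D). The 9 libraries came from 3D cultures without added palmitate, 3D cultures with 75 µM palmitate and 2D cultures with 75 µM palmitate, with 3 libraries per condition, all after 5 days. Palmitate was bound to albumin, the cultures without it received the albumin and ethanol carrier, and all media held serum. Every library is from this 1 cell line, and 2D cultures without added palmitate were not analysed here. The labels number the replicates but do not say whether they were separate cultures, and the methods speak of biological replicates for the study in general without naming these libraries, so p-values measure only the spread between these libraries, which may be technical.

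De novo synthesis starts in the endoplasmic reticulum, where serine palmitoyltransferase condenses serine with palmitoyl-CoA, and the product is reduced to sphinganine. A ceramide synthase then attaches a fatty acyl chain to give dihydroceramide, and each of the ceramide synthases prefers chains of a certain length. A desaturase turns dihydroceramide into ceramide, from which sphingomyelin and glucosylceramide are made in the Golgi. Ceramide is also released again when these lipids are broken down, and its sphingosine backbone leaves the pathway only by phosphorylation and cleavage. Saturated fatty acids are well known to feed ceramide synthesis in many cell types.

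Levels are given as CPM, counts for every 1000000 counts of the library, adjusted by TMM, which sets most genes equal between libraries, and differences as log2 fold changes with standard errors (SE). A gene was called when its Benjamini-Hochberg adjusted p-value from edgeR's quasi-likelihood test over all 12575 genes was under 0.05. Total counts per library ranged from 6595514 to 31177756, and the smallest library was a 3D library with palmitate. The ribosomal RNA precursor Rn45s took between 1.77% and 5.38% of them. All 6 epithelial markers looked at were present, and their summed level ran from 4000 to 4330 CPM in 2D and from 4900 to 5160 CPM in the 6 3D libraries. Markers of immune cells, endothelium and adipocytes did not exceed 0.613 CPM in any library, with Cd3e and Adgre1 at 0 throughout. Of the fibroblast markers, Pdgfra was at 29.5 to 110 CPM and higher in 3D, while Dcn had at most 1 count and Lum none. The part of these differences in the values below was not tested. In bulk RNA, fewer cells that express a gene and less of its RNA per cell cannot be told apart.

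The sequences before the start sites are shown for the paired subunits Sptlc1 and Sptlc2, whose levels moved by different amounts in 3D, and around the only listed motif that was found. The members matched 14 RefSeq start sites in GRCm38.p6, the build of the alignment. The genome is that of C57BL/6J mice, whereas 4T1 came from a BALB/c mouse. Each window of 300 bases, from 250 before to 50 after a start, was searched on both strands for the E-box CACGTG, for TGATGNAAT (the letters bound by ATF4 and its partners) and for AGGTCA repeated after 1 base (DR1, the letters bound by PPAR with RXR). Only the E-box was found, in 3 of the 14 windows, and it occurs in 7.15% of all 32851 mouse windows of that length. TGATGNAAT occurs in 0.965% and DR1 in 0.0396% of them. The stretches shown are 5′ to 3′ on the gene's strand, the E-box is in capitals, and positions count from the RefSeq start. For Sptlc1 they end 36 bases before it, where the GENCODE gene begins (chr13:53377398-53377611, minus strand). For Sptlc2 (chr12:87388356-87388605, minus strand) and Cers6 (chr2:68861191-68861440, plus strand) they end at the start itself. For Degs1 (chr1:182282221-182282250, minus strand) and Cers2 (chr3:95315049-95315078, plus strand), where the window lies within the GENCODE gene, only the 30 bases around the E-box are given.
Sptlc1: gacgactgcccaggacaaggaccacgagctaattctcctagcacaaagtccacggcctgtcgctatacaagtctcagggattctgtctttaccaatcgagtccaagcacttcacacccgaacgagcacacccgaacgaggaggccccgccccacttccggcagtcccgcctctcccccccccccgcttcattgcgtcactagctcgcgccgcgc
Sptlc2: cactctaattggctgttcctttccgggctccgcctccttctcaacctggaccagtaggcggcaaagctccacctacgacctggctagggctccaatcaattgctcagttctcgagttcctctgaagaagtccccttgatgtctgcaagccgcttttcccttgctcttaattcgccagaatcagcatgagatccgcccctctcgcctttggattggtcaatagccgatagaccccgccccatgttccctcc
Cers6: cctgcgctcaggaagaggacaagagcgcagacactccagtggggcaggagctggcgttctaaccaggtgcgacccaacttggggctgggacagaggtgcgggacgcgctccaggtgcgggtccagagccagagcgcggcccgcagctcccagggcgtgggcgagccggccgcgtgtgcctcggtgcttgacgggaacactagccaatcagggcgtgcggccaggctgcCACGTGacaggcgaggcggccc
Degs1: gggagcctcaatCACGTGgtccagtcagct
Cers2: cgccctgcggggCACGTGccacccgccccg
The E-box begins at position -22 for Cers6, -43 for Degs1 and -129 for Cers2. The windows of Sptlc1 and Sptlc2 held none of the 3 motifs. A match is a stretch of letters and not a measured binding site, and nothing was measured here about the factors that use them.

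The comparison of 3D with 2D, both with palmitate, asks how the culture format changed the cells at the same palmitate supply. All 10 genes were called higher in 3D than in 2D, in a list chosen with earlier results of these data known. Serine palmitoyltransferase subunit Sptlc1 rose 2.19-fold, sphingomyelin synthase Sgms1 1.80-fold and the desaturase Degs1 1.63-fold. The other 7 genes rose between 1.14-fold (Ugcg) and 1.33-fold (Cers6). The background was high: 68.3% of all genes tested were called in this comparison, 34.5% higher and 33.9% lower in 3D. The libraries of the groups did not overlap for 9 of the 10 members, all higher in 3D, while 34.6% of all genes tested lay higher without overlap and 34.8% lower. The median log2 fold change was 0.37 over the 10 genes and 0.0083 over all genes tested.

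Part of this shared direction moved with how base composition and transcript length were treated. When each library's trend of log2 level with transcript GC content and length was removed, 7 of the 10 genes were called, 6 higher and 1 lower, and the median was 0.24 against -0.078 over all genes. Among all genes tested, 71.6% were called in that fit, 30.4% higher and 41.2% lower in 3D, so the share of members called was near the background. Sptlc1 (1.16), Degs1 (0.80), Sgms1 (0.74), Cers2 (0.28), Cers5 (0.26) and Sgpl1 (0.21) stayed called higher, given as log2 fold changes. Sptlc2 turned to -0.14 (edgeR adjusted p = 0.0109), and Kdsr (0.11), Cers6 (0.046) and Ugcg (0.074) were no longer called. The fit also set the mean log2 level of the libraries equal, so part of each change can come from scaling. The median over all genes was 0.0083 before and -0.078 after.

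**Figure D1:**
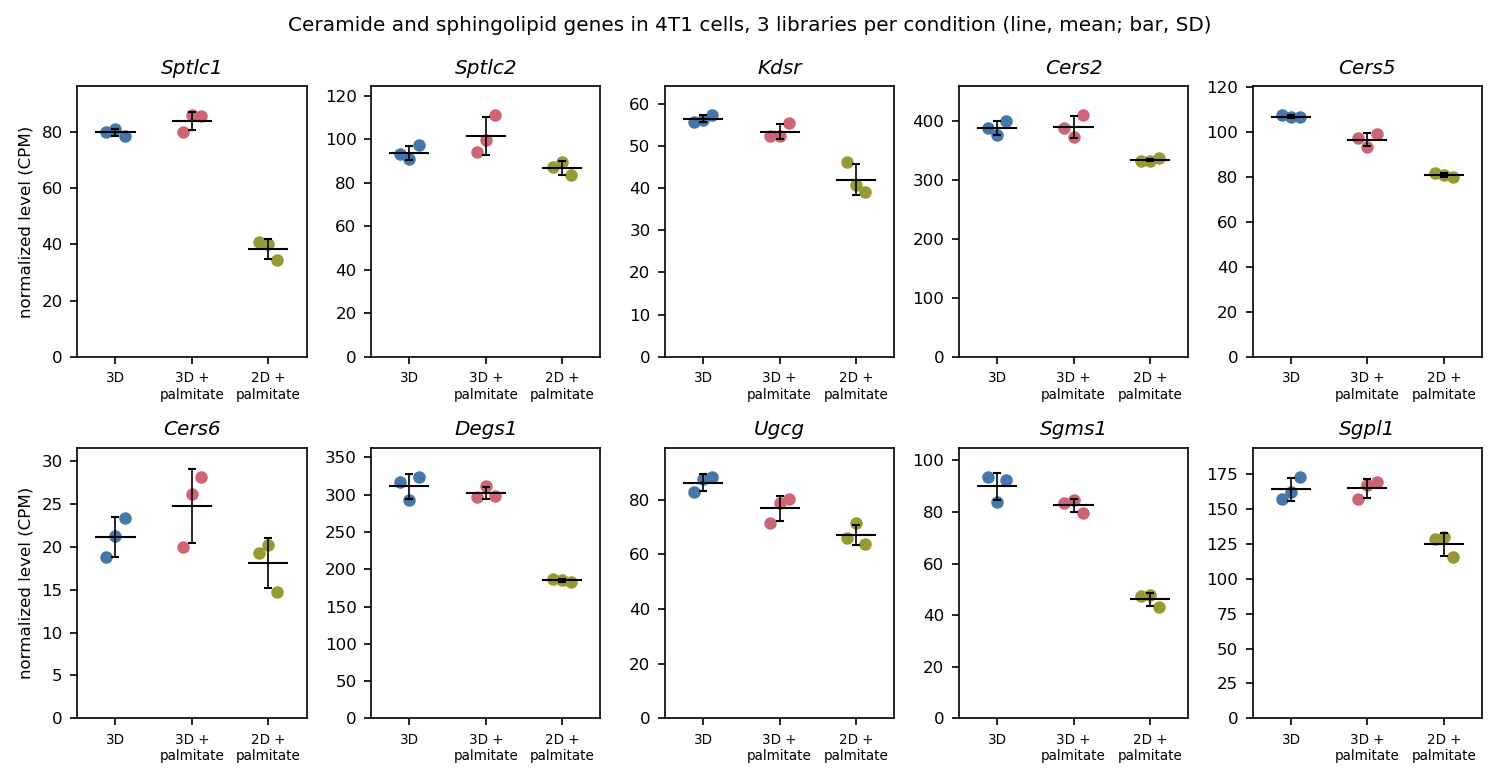
TMM-scaled level in CPM of each of the 10 genes in every library (points), with the mean (line) and SD (bar) of the 3 libraries per condition; each vertical axis starts at 0. The 3 libraries of 2D cultures with palmitate lie below all 3D libraries with palmitate for every gene but Cers6. The 3D libraries with and without palmitate overlap for every gene but Kdsr, Cers5 and Ugcg, which lie lower with palmitate.

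The comparison of 3D with and without palmitate asks what the added fatty acid itself changed. No member was called, against 2.19% of all genes tested (1.38% higher and 0.811% lower with palmitate). DESeq2 on all 9 libraries also called 0 of the 10. By the edgeR test 2 genes, Cers5 and Ugcg, had an unadjusted p under 0.05, against 17.3% of all genes tested. The groups lay apart for 3 members, Kdsr, Cers5 and Ugcg, all lower with palmitate. Among all genes tested, 8.19% lay lower and 10.4% higher without overlap. The 10 log2 fold changes ran from -0.17 (Ugcg) to 0.19 (Cers6), with a median of -0.019 against 0.0077 over all genes. The 95% intervals of the fold changes lay between 0.800 and 1.41, so a change beyond these bounds lies outside every interval. Over all genes, 62.9% of the calls in this comparison were higher with palmitate, and 46.7% when libraries were scaled by their total counts alone or 52.7% with no filter on low counts. Both comparisons use the same 3D libraries with palmitate, so they are not independent of each other.

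**Figure D2:**
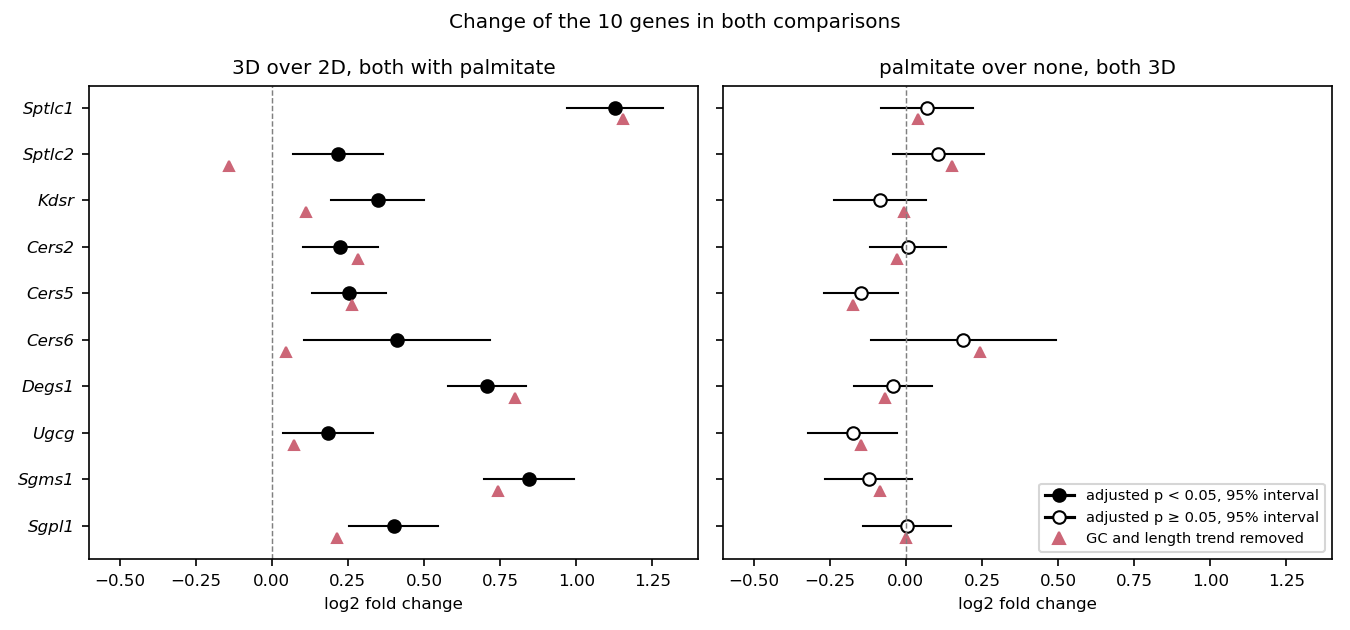
Log2 fold change of the 10 genes with its 95% interval, 3D over 2D with palmitate (left) and with over without palmitate in 3D (right), filled where the edgeR adjusted p was under 0.05; triangles give the value after removal of the GC and length trend. All 10 circles on the left lie above 0 and are filled, those on the right lie between -0.17 and 0.19 and are open, and the triangle of Sptlc2 on the left lies below 0.

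Serine palmitoyltransferase, the rate-limiting enzyme of the pathway, is a complex of Sptlc1 with Sptlc2. Sptlc1 (chr13:53332748-53377397, minus strand, GRCm38) encodes the subunit that holds the complex together. It was measured at 80.0, 80.8 and 78.4 CPM in 3D without palmitate, 80.0, 85.9 and 85.5 CPM in 3D with palmitate and 40.7, 40.0 and 34.3 CPM in 2D with palmitate. Every 2D library stood far below every 3D library, and the 3D groups overlapped. In edgeR, 3D over 2D gave a log2 fold change of 1.13 (SE 0.0732, edgeR adjusted p = 6.29e-09), a 2.19-fold difference with a 95% interval of 1.96 to 2.44. Palmitate in 3D moved it by 0.068 (SE 0.0706, edgeR adjusted p = 0.675).

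Sptlc2 (chr12:87305058-87388355, minus strand) carries the catalytic site. Its levels were 93.3, 90.8 and 97.2 CPM in 3D without palmitate, 94.1, 99.6 and 111 CPM in 3D with palmitate and 87.3, 89.6 and 83.6 CPM in 2D. The 3D libraries with palmitate were all above the 2D libraries, though the nearest of them differed by less than the range within either group. Against 2D, 3D gave a log2 fold change of 0.22 (SE 0.0696, edgeR adjusted p = 0.0123), and without 2D replicate 3 it was 0.19 and not called (edgeR adjusted p = 0.0512). Added palmitate gave 0.11 in 3D (edgeR adjusted p = 0.461).

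The counts of both subunits were set against each other within each library. The ratio of Sptlc2 to Sptlc1 counts was 1.18, 1.16 and 1.30 in 3D with palmitate and 2.15, 2.24 and 2.44 in 2D. All 3 ratios in 2D were higher than all 3 in 3D. The means were 1.21 ± 0.0776 (SD, n = 3) and 2.27 ± 0.148 (SD, n = 3), with a two-sided exact permutation p = 0.1, the smallest that 3 against 3 libraries can give, so this design cannot pass 0.05. Over the 12 such ratio tests the Benjamini-Hochberg value was 0.3. In 3D without palmitate the mean ratio was 1.18 ± 0.0592 (SD, n = 3), which overlapped the 3D libraries with palmitate (exact permutation p = 0.6). A ratio within a library does not depend on the scaling between libraries, but a trend with GC content or length can still reach it. After that trend was removed, the log2 fold changes of Sptlc1 and Sptlc2 were 1.16 and -0.14, farther apart than before. Per kilobase of exon, Sptlc1 was at 23.6 ± 0.918 CPM and Sptlc2 at 12.5 ± 1.07 CPM (SD, n = 3) in 3D with palmitate, and at 10.8 ± 0.986 and 10.7 ± 0.374 CPM in 2D, where the levels lay within the spread of each other.

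None of the regulators of the enzyme that were tested was called in either comparison, against 68.3% and 2.19% of all genes tested. Sptssa, a small subunit that activates it, was at 81.1, 80.8 and 71.2 CPM in 3D with palmitate and 75.7, 71.3 and 79.0 CPM in 2D. Ormdl1, Ormdl2 and Ormdl3 encode the inhibitory subunits that sense ceramide. The log2 fold changes of these 4 genes for 3D over 2D ran from -0.091 (Ormdl1) to 0.055 (Sptssa). After removal of the GC and length trend Sptssa was called higher in 3D (log2 fold change 0.30, edgeR adjusted p = 2.64e-04). The alternative catalytic subunit Sptlc3 had 3, 1 and 1 counts in 3D without palmitate, 2, 1 and 1 counts in 3D with palmitate and 0 counts in every 2D library. Sptssb, the other small subunit, had at most 1 count in any library.

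Kdsr (chr1:106720459-106759727, minus strand) reduces the product of serine palmitoyltransferase to sphinganine. Its levels were 55.7, 56.1 and 57.3 CPM in 3D without palmitate, 52.3, 52.3 and 55.4 CPM in 3D with palmitate and 46.1, 40.8 and 39.1 CPM in 2D. The 3 groups did not overlap, with 3D without palmitate the highest and 2D the lowest. For 3D over 2D, edgeR estimated a log2 fold change of 0.35 (SE 0.0717, edgeR adjusted p = 5.75e-04), and 0.11 (edgeR adjusted p = 0.120) with the GC and length trend removed. That of palmitate in 3D was -0.085 (edgeR adjusted p = 0.588), so the gap between the 3D groups was not called.

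Of the ceramide synthases, Cers2 was by far the most abundant at the mRNA level. Cers2 makes ceramides with very long acyl chains, whereas Cers5 and Cers6 make those with palmitoyl chains. As a share of the CPM per kilobase of all ceramide synthase genes, Cers2 took 77.5% ± 0.202 (SD, n = 3) in 3D with palmitate, Cers5 19.98% ± 0.403, Cers6 2.04% ± 0.333 and the epidermal Cers3 0.456% ± 0.135. In 2D the shares were 78.0% ± 0.506, 19.7% ± 0.201, 1.75% ± 0.286 and 0.599% ± 0.0486. In 3D without palmitate they were 75.9% ± 0.569, 21.8% ± 0.540, 1.71% ± 0.168 and 0.571% ± 0.156. Cers5 took a larger share in all 3 libraries without palmitate (21.2% to 22.2%) than in any with it in 3D (19.5% to 20.3%). Cers1 and Cers4 had 0 counts in all 9 libraries. Whether their exons overlap those of other genes was not checked, so 0 counts need not mean that they were not expressed.

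Cers2 (chr3:95314791-95323599, plus strand) was measured at 387, 376 and 400.0 CPM in 3D without palmitate, 387, 372 and 409 CPM in 3D with palmitate and 332, 331 and 336 CPM in 2D. The 3D libraries spread more than the 2D libraries, but all lay above them. As a log2 fold change, 3D over 2D gave 0.23 (SE 0.0582, edgeR adjusted p = 0.00318), and that of palmitate in 3D was 0.0070, with a 95% interval of the fold change from 0.922 to 1.09. Its exons overlap those of Setdb1 over 75 bases and those of 6330562C20Rik over 144 bases on the opposite strand. The kit keeps strand, but the strand setting of the counting is not given in the sources used here, so reads in these stretches may be uncertain.

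Cers5 (chr15:99734881-99772885, minus strand) was at 108, 107 and 107 CPM in 3D without palmitate, 97.6, 93.5 and 99.1 CPM in 3D with palmitate and 82.0, 81.2 and 80.2 CPM in 2D. The groups stood in that order with no overlap, each with a narrow spread. Between 3D and 2D the log2 fold change was 0.25 (SE 0.0569, edgeR adjusted p = 0.00116). Added palmitate gave -0.15 in 3D (95% interval -0.27 to -0.026, edgeR adjusted p = 0.195). That value became a call when the GC and length trend was removed (-0.17, edgeR adjusted p = 0.0297), a fit in which 7.38% of all genes tested were called, 4.26% higher and 3.12% lower with palmitate. The ratio of Cers5 to Cers2 counts was 0.248 ± 0.00545 (SD, n = 3) with and 0.276 ± 0.00868 (SD, n = 3) without palmitate in 3D, with no overlap and an exact permutation p = 0.1 (0.3 after adjustment over the 12 tests).

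Cers6 (chr2:68861441-69114282, plus strand) was the least abundant member, and the most variable between replicates. It was measured at 18.8, 21.3 and 23.4 CPM in 3D without palmitate, 19.9, 26.1 and 28.2 CPM in 3D with palmitate and 19.3, 20.2 and 14.8 CPM in 2D. The lowest 3D library with palmitate lay below the highest 2D library, so the groups overlapped. In edgeR, 3D over 2D gave a log2 fold change of 0.41 (SE 0.143, edgeR adjusted p = 0.0191). It was not called without 3D replicate 2 with palmitate (0.35, edgeR adjusted p = 0.0798), without 2D replicate 3 (0.27, edgeR adjusted p = 0.101) or with the GC and length trend removed (0.046, edgeR adjusted p = 0.690). The palmitate comparison gave 0.19 (95% interval -0.12 to 0.49), the widest interval of the 10.

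Degs1 (chr1:182275772-182282804, minus strand) introduces the double bond that turns dihydroceramide into ceramide. It was measured at 317, 292 and 324 CPM in 3D without palmitate, 297, 311 and 298 CPM in 3D with palmitate and 187, 185 and 183 CPM in 2D. Every 3D library lay far above every 2D library, and the 3D groups overlapped. Against 2D, 3D gave a log2 fold change of 0.71 (SE 0.0600, edgeR adjusted p = 1.01e-07), a 1.63-fold difference with a 95% interval of 1.49 to 1.78. Palmitate in 3D gave -0.043 (95% interval -0.17 to 0.085). Its mean level per kilobase of exon over the 9 libraries was 103 CPM and that of Cers2 was 101 CPM, both at percentile 97.4 of the 12509 tested genes with a length, and Cers6 was at percentile 25.2. Degs2, the other desaturase, had 0 to 3 counts per library.

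Ceramide is used further by Sgms1, a Golgi enzyme that makes sphingomyelin, and by Ugcg, which makes glucosylceramide. Sgms1 (chr19:32122727-32389714, minus strand) was at 93.8, 84.1 and 92.3 CPM in 3D without palmitate, 83.6, 84.5 and 79.6 CPM in 3D with palmitate and 47.5, 47.7 and 43.1 CPM in 2D. The 2D libraries lay far below all 3D libraries. For 3D over 2D, edgeR estimated a log2 fold change of 0.85 (SE 0.0690, edgeR adjusted p = 6.79e-08), and that of palmitate in 3D was -0.12 (edgeR adjusted p = 0.370). Its exons overlap those of 2700046G09Rik on the opposite strand over 10 bases.

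Ugcg (chr4:59189257-59222833, plus strand) moved less. Its levels were 82.8, 87.6 and 88.5 CPM in 3D without palmitate, 71.5, 78.6 and 80.2 CPM in 3D with palmitate and 66.1, 71.3 and 63.9 CPM in 2D. The lowest 3D library with palmitate and the highest 2D library were less than 1 CPM apart. As a log2 fold change, 3D over 2D gave 0.19 (SE 0.0691, edgeR adjusted p = 0.0271), and the call was lost in 7 of the 16 alternative fits, among them those without 3D replicate 2 or 3 with palmitate and those without 2D replicate 1 or 3. Added palmitate gave -0.17 in 3D (95% interval -0.32 to -0.028, edgeR adjusted p = 0.207). Without 3D replicate 3 with palmitate, the smallest library, this value was -0.21 and called (edgeR adjusted p = 0.0499).

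The ratio of Ugcg to Sgms1 counts was 0.931 ± 0.0760 (SD, n = 3) in 3D with palmitate and 1.46 ± 0.0563 (SD, n = 3) in 2D, with no overlap and an exact permutation p = 0.1. In 3D without palmitate it was 0.961 ± 0.0799 (SD, n = 3), overlapping that with palmitate (exact permutation p = 0.7). Sgms2, the sphingomyelin synthase of the plasma membrane, was at 161, 155 and 168 CPM in 3D with palmitate and 151, 156 and 140.0 CPM in 2D and was not called (log2 fold change 0.11, edgeR adjusted p = 0.119). With the GC and length trend removed Sgms2 was called lower in 3D (-0.18, edgeR adjusted p = 0.00338).

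Sgpl1 (chr10:61098642-61147703, minus strand) encodes sphingosine phosphate lyase, which cleaves the backbone and is the only exit from the pathway. It was measured at 157, 162 and 173 CPM in 3D without palmitate, 157, 167 and 169.5 CPM in 3D with palmitate and 128, 130.2 and 115 CPM in 2D. All 3D libraries lay above all 2D libraries. Between 3D and 2D the log2 fold change was 0.40 (SE 0.0680, edgeR adjusted p = 1.07e-04), and the fold change with palmitate in 3D was 1.00 (95% interval 0.907 to 1.11). Set against the entry enzyme, the ratio of Sgpl1 to Sptlc1 counts was 1.97 ± 0.0176 (SD, n = 3) in 3D with palmitate and 3.26 ± 0.105 (SD, n = 3) in 2D, with no overlap and an exact permutation p = 0.1. It was 2.06 ± 0.133 (SD, n = 3) in 3D without palmitate (exact permutation p = 0.3 against 3D with palmitate).

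**Figure D3:**
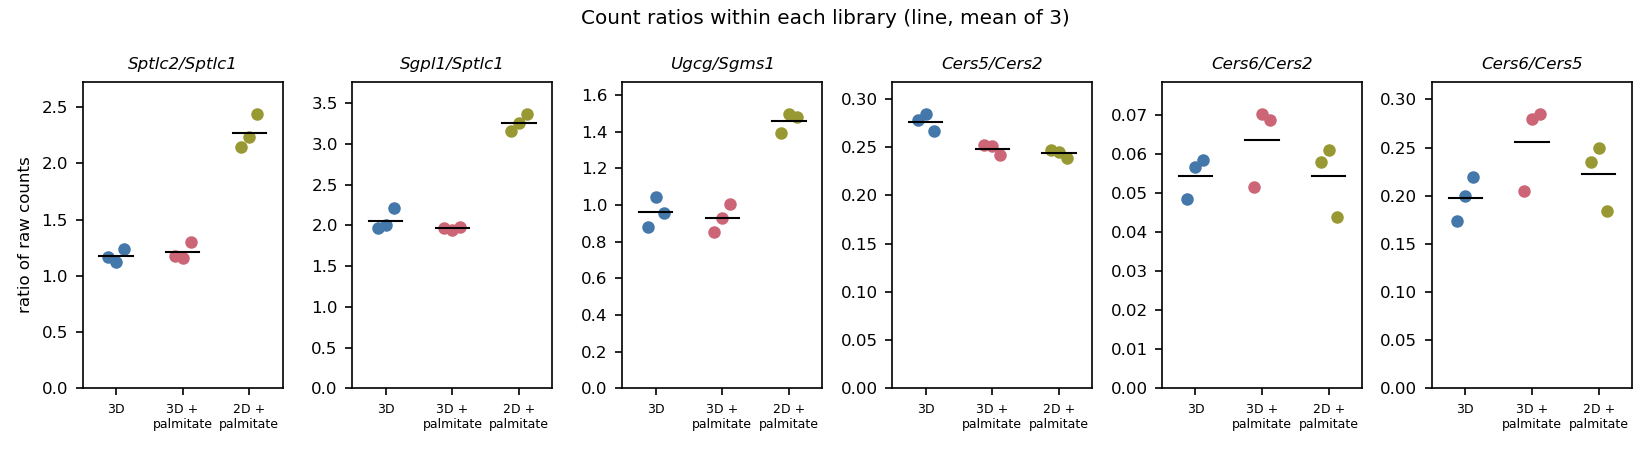
Ratio of the raw counts of the named pairs of genes within each library (points; line, mean of 3), by condition, with each axis from 0. For Sptlc2 to Sptlc1, Sgpl1 to Sptlc1 and Ugcg to Sgms1 the 3 libraries of 2D cultures lie above all 3D libraries, while Cers6 to Cers2 and Cers6 to Cers5 overlap between all conditions.

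Around these 10 genes, 53 further genes of sphingolipid metabolism were listed, of which 40 passed the filter. In 3D against 2D, 17 of the 40 were called higher, 8 lower and 15 were not called, with a median log2 fold change of 0.18. After removal of the trend with GC content and length, the counts were 16 higher and 12 lower, against 30.4% and 41.2% of all genes tested. With palmitate in 3D, 1 was called higher, 1 lower and 38 were not called, with a median of 0.0090. Without removal of the trend, the shares called over all genes were 68.3% and 2.19%.

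Among genes that carry ceramide onward, calls in 3D against 2D were all higher, except for Sgms2 with the GC and length trend removed. Over all genes tested, 34.5% were called higher and 33.9% lower, or 30.4% and 41.2% with that trend removed. Of 5 genes grouped under sphingomyelin and ceramide phosphate, enzymes and transfer proteins together, 3 were called higher. They were the ceramide transfer protein Cert1 (log2 fold change 0.53, edgeR adjusted p = 6.51e-05), which brings ceramide to the Golgi, the ceramide phosphate transfer protein Cptp (log2 fold change 0.54, edgeR adjusted p = 2.22e-05) and Samd8 (log2 fold change 0.52, edgeR adjusted p = 1.19e-05), which makes ceramide phosphoethanolamine. With that trend removed, Cert1 was at 0.29 and Samd8 at 0.19, both still called. Ceramide kinase Cerk was at 0.11 (edgeR adjusted p = 0.384). Of 6 tested genes grouped under glycosphingolipid synthesis, again with transfer proteins among them, 5 were called higher, and 4 with the trend removed. Chosen after their values were seen, Plekha8 lost its call there (0.15, edgeR adjusted p = 0.102) and B4galnt1 without 3D replicate 1 with palmitate (edgeR adjusted p = 0.0849). B4galt5, the main lactosylceramide synthase, was at 195, 176 and 167 CPM in 3D with palmitate and 85.5, 87.2 and 82.5 CPM in 2D, a 2.12-fold difference (edgeR adjusted p = 3.76e-09). St3gal5, which makes the ganglioside GM3 from its product, was at 31.1, 28.1 and 26.5 CPM and 13.2, 12.5 and 13.6 CPM, a 2.22-fold difference (edgeR adjusted p = 3.88e-08).

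Of the 12 genes grouped under breakdown of complex lipids to ceramide, 5 were called higher in 3D, 2 lower and 5 were not called. With the GC and length trend removed, 4 were called higher and 4 lower. The shares over all genes tested were 34.5% higher and 33.9% lower, and 30.4% and 41.2% with the trend removed. Acid sphingomyelinase Smpd1 rose 2.29-fold, from 15.7, 17.4 and 15.9 CPM in 2D to 40.4, 37.5 and 33.1 CPM in 3D with palmitate (edgeR adjusted p = 2.97e-08). Psap, the precursor of the saposins that lysosomal lipid hydrolases need, rose 1.69-fold (edgeR adjusted p = 6.26e-08). Galactosylceramidase Galc went the other way. It was at 24.6, 22.4 and 25.1 CPM in 3D without palmitate, 25.8, 25.8 and 34.5 CPM in 3D with palmitate and 44.0, 49.7 and 43.4 CPM in 2D, a log2 fold change of -0.72 (SE 0.102, edgeR adjusted p = 2.03e-05). Arylsulfatase Arsa, the other gene called lower (-0.20, edgeR adjusted p = 0.0437), lost its call in 10 of the 16 alternative fits, among them those without 3D replicate 2 or 3 with palmitate and without any 1 of the 2D libraries. Removal of the trend ended the call of the sphingomyelinase Smpd4 (-0.0077, edgeR adjusted p = 0.906), and Smpd2 (-0.30) and Smpd3 (-0.80), also sphingomyelinases, were then called lower. Arsa and these 3 genes were named after their values were seen.

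Of the 8 tested genes between ceramide and the end of the pathway, 2 were called higher in 3D, 4 lower and 2 were not called. With the trend removed, 2 were called higher and 5 lower, the fifth being the neutral ceramidase Asah2 (-0.15, edgeR adjusted p = 0.0437), named after its values were seen. Acid ceramidase Asah1 was higher (log2 fold change 0.42, edgeR adjusted p = 5.63e-04), and alkaline ceramidase Acer3 was lower (-0.52, edgeR adjusted p = 8.05e-06, and -0.96 with the trend removed). Sphingosine kinase Sphk1 was at 24.2, 22.6 and 14.8 CPM in 3D with palmitate and 30.8, 31.8 and 33.5 CPM in 2D and was called lower (-0.58, edgeR adjusted p = 8.09e-04), and Sphk2 was not called (0.11, edgeR adjusted p = 0.310). The sphingosine phosphate phosphatase Sgpp1 was lower by a smaller amount (-0.22, edgeR adjusted p = 0.0127), and not called without 3D replicate 1 with palmitate (edgeR adjusted p = 0.0573). Sgpp2, the other gene called lower and named after its values were seen (-0.85, edgeR adjusted p = 0.0239), lost its call in 5 of the 15 alternative fits that gave it a value, among them those without 3D replicate 2 or 3 with palmitate and without 2D replicate 1. The fatty aldehyde dehydrogenase Aldh3a2, which oxidizes the aldehyde that Sgpl1 releases and many other fatty aldehydes, had the largest log2 fold change of the 17 called higher. It was at 342, 319 and 352 CPM in 3D without palmitate, 307, 313 and 324 CPM in 3D with palmitate and 77.6, 74.0 and 74.0 CPM in 2D, a 4.19-fold difference (SE 0.0631 on the log2 scale, edgeR adjusted p = 2.26e-12). Acer2 had 1 to 8 counts per library.

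**Figure D4:**
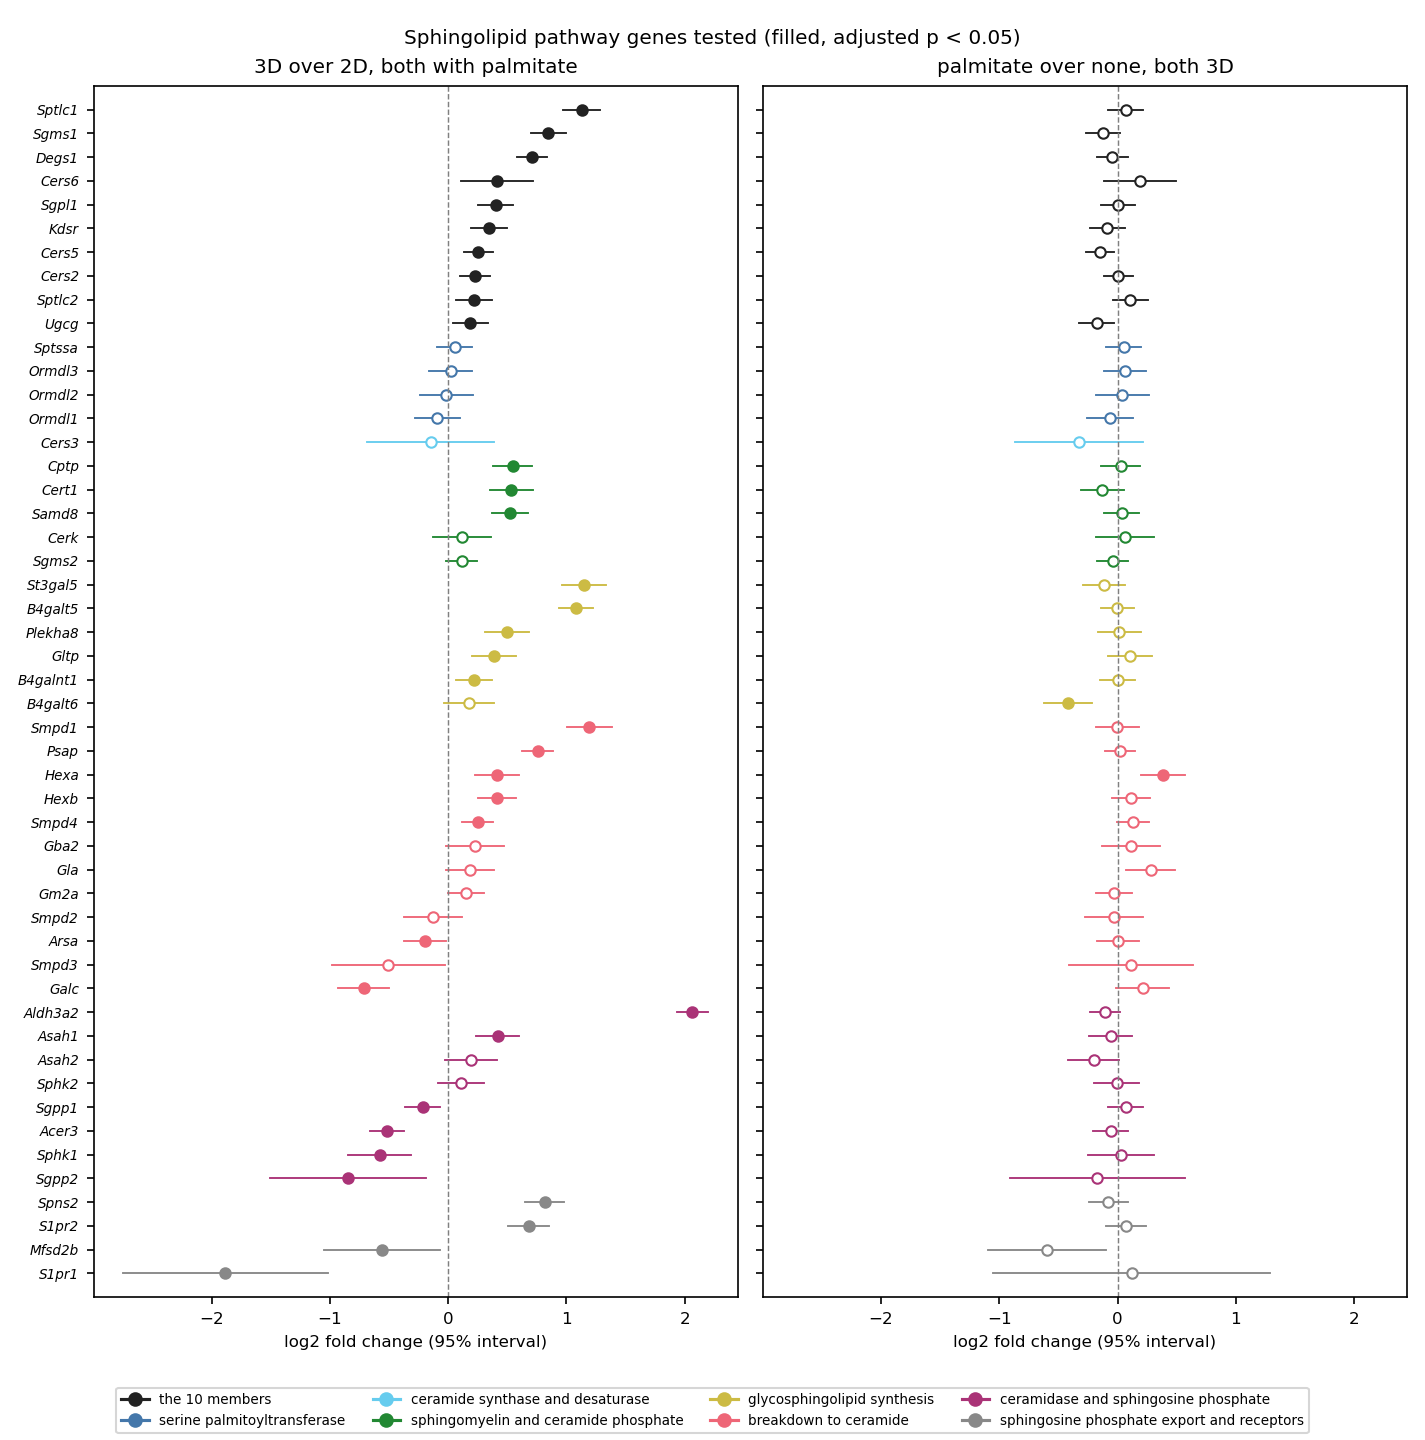
Log2 fold change with 95% interval of the 10 members and of 40 further sphingolipid genes, coloured by group, for 3D over 2D with palmitate (left) and with over without palmitate in 3D (right), filled where the edgeR adjusted p was under 0.05. On the left the members and the filled genes of the sphingomyelin and glycosphingolipid groups lie above 0. Filled genes of breakdown, of ceramidases and of sphingosine phosphate lie on both sides. On the right only Hexa (above 0) and B4galt6 (below 0) are filled.

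With palmitate in 3D the 2 called genes were Hexa and B4galt6. Hexa, a subunit of the lysosomal hexosaminidase that degrades GM2, was at 15.7, 14.9 and 15.2 CPM without and 20.2, 20.7 and 18.7 CPM with palmitate, all libraries with palmitate being higher (log2 fold change 0.39, SE 0.0869, edgeR adjusted p = 0.0358). B4galt6, the other lactosylceramide synthase, was at 25.1, 29.2 and 28.5 CPM without and 19.2, 20.3 and 23.7 CPM with palmitate, all libraries with palmitate being lower (log2 fold change -0.42, SE 0.0964, edgeR adjusted p = 0.0398). The call of Hexa was lost in 10 of the 16 alternative fits and that of B4galt6 in 9, for both in each fit that left out any library other than 3D replicate 3 with palmitate. With the share of Rn45s as a covariate the edgeR adjusted p was 0.281 for Hexa and 0.250 for B4galt6.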

How the data were processed

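The authors deposited raw counts of reads per gene, 1 column per library. According to the methods and the submitters' processing notes, RNA was extracted with TRIzol, stranded mRNA libraries were sequenced as single-end reads, and reads were cleaned with fastq-mcf, inspected with FastQC 0.11.9, aligned to GRCm38 (mm10) with HISAT2 2.1.0 and counted with HTSeq. The annotation release and the strand setting are not given in the sources used here. Paralogs could lose reads to each other.

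Samples were grouped by their labels. Counts were fitted in R 4.3.3 with edgeR 4.0.16 (filterByExpr, TMM, quasi-likelihood test, condition as the only term, all 9 libraries, Benjamini-Hochberg over 12575 genes, threshold 0.05). Each SE was taken as the absolute log2 fold change over the root of F. Ratios of raw counts were compared by a two-sided exact permutation test. DESeq2 1.42.0, another scaling, other filters, 2 groups only, a replicate block, the Rn45s share, a GC and length trend (splines of 4 degrees of freedom per library) and leaving out each library were alternatives. Positions, lengths and GC content came from GENCODE M21, with 23384 of 24421 genes matched by symbol and 678 by a synonym, and start-site sequences from RefSeq. Cert1 is listed in the table under its older symbol. The scripts were tested on simulated data.

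The members and lists were chosen with earlier results of these data known. All members are named, and 1 further gene of the pathway is not reported here. Further genes were named if called with palmitate, if among the 12 called with the smallest p in 3D against 2D, or if on a list of relatives and neighbouring enzymes of the members (regulators, other synthases, ceramidases, kinases and phosphatases). Others are marked as chosen after their values were seen. Total counts are 1 limit on the precision: the smallest library had 6595514. Within conditions, the chi-square value per gene of library pairs was 3.89 to 19.7 over genes with at least 20 counts. No pair was therefore alike within sampling noise. The highest values, 16.4, 19.1 and 19.7, were those of 3D with palmitate, the group used in both comparisons. Pairs of the other conditions ran from 3.89 to 9.3.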

Additional observations from a re-analysis of the deposited data

How the results depend on the processing

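Cers6 had the fewest counts of the members, 184 of them in the smallest library (6595514 counts). Its lowest level in 3D with palmitate, 19.95 CPM, came from replicate 1 with 542 counts. The part of depth in its spread was not tested. In 3D against 2D, the 16 alternative fits left the direction of every member as it was, except Sptlc2 with the GC and length trend removed (-0.14), and Ugcg lost its call also with no filter on low counts (0.16) and with DESeq2 on both groups (0.19). With a library left out, 7 to 10 members were called (7 without 2D replicate 3). At a minimum log2 fold change of 0.5, 3 members (Sptlc1, Degs1 and Sgms1) and 16 of the other pathway genes were called, and 0 other pathway genes with palmitate. Shares over all genes are not given for this minimum or with a library left out. These counts therefore have no background beside them. With palmitate in 3D, 1 member (Cers5) was called with the GC and length trend removed, and 0 to 1 with a library left out. The other pathway genes called there were 1 with library size only, 0 with only both groups, with the Rn45s share, with DESeq2 on both groups and in the replicate block, and 0 to 5 with a library left out (5 without 3D replicate 3 with palmitate, 0 without the other 5 libraries one at a time). Over all genes tested, 227 were called with palmitate when only library size was used, and 44 with the Rn45s share.

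Values near 0 changed sign with palmitate. Cers2 was at -0.016 with library size only, -0.015 with no filter, -0.0037 at 10 counts in every library, -0.0011 with both groups only or with DESeq2 on them, and -0.031 with the trend removed, and from -0.029 to 0.033 with a library left out. Sgpl1 was at -0.019, -0.018, -0.0064, -0.0036 (-0.0037 with DESeq2 on both groups), -0.0019 with DESeq2 on all libraries and -0.018 with the Rn45s share, and from -0.028 to 0.045 with a library left out. The log2 ratio of Sptlc2 to Sptlc1 ran from -0.0099 to 0.081 and that of Ugcg to Sgms1 from -0.11 to 0.015 with a library left out. The causes were not tested.

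Same-numbered libraries did not deviate together (r from -0.24 to 0.15 over 9 pairs, against -0.17 to 0.28 over 18 others), so the numbers were not taken as pairs. With the replicate block, 10 members and 25 other pathway genes were called in 3D against 2D, and 0 and 0 with palmitate.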

Other observations

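Genes that move sphingosine phosphate out of the cell or receive it were also looked at. Of the 7 listed, 4 passed the filter. In 3D against 2D, 2 of them were called higher and 2 lower, and none was called with palmitate in 3D. Among all genes tested, 34.5% were called higher and 33.9% lower in 3D than in 2D, and 2.19% were called with palmitate. Spns2, an exporter of sphingosine phosphate, was at 127, 133 and 126 CPM in 3D without palmitate, 137, 119 and 108 CPM in 3D with palmitate and 68.2, 70.9 and 69.0 CPM in 2D. Between the formats its log2 fold change was 0.82 (SE 0.0781, edgeR adjusted p = 3.62e-07). The receptor S1pr2 was at 56.0, 60.8 and 57.7 CPM, 63.7, 63.6 and 54.2 CPM and 41.5, 38.4 and 34.9 CPM in the same order, with a log2 fold change of 0.68 (SE 0.0814, edgeR adjusted p = 3.66e-06), or 0.33 with the GC and length trend removed. Chosen after its values were seen, the receptor S1pr1 had 13, 1 and 2 counts in 3D with palmitate and 11, 44 and 29 counts in 2D and was called lower in 3D at these low counts (edgeR adjusted p = 7.95e-04). The other called gene, the exporter Mfsd2b, also named after its values were seen, was at 2.06, 1.44 and 1.84 CPM in 3D with palmitate and 2.23, 2.72 and 2.98 CPM in 2D (log2 fold change -0.56, edgeR adjusted p = 0.0428), and its call was lost in 7 of the 16 alternative fits, among them those without 3D replicate 2 or 3 with palmitate and without 2D replicate 2 or 3.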
